A study of Mus musculus with 11 samples.

Results

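The genes described here are the cytosolic ribosomal protein genes, which encode the protein part of the ribosomes of the cytosol. They were chosen by symbol: 77 of the 24411 genes in the files matched Rpl or Rps, then digits and at most 1 of the letters a, l or x, and Rplp0, Rplp1, Rplp2 and Rpsa were added, which gave 81. The rule uses symbols and no measured value, but it was set with earlier results of these data known. The ribosomal protein mRNAs were read in 11 mouse RNA-seq libraries of 4 groups. The group BKO-NSP held 3 libraries of neurospheres labelled Bmal1-/-, and WT-NSP held 3 libraries of wild-type neurospheres. BKO-CC held 2 libraries of corpus callosum labelled Bmal1-/-, and WT-CC held 3 libraries of wild-type corpus callosum. Neurospheres are balls of neural stem cells and their progeny that grow in suspension. The cells came from the subventricular zone, next to the lateral ventricles, and grew for 1 week in medium with EGF at 20 ng/ml and heparin at 2 ug/ml. The corpus callosum, the myelinated tract that joins the hemispheres, was dissected and not cultured. All mice were 8 to 10 weeks old.

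Each ribosome has a large subunit, whose proteins carry names in Rpl, and a small subunit, whose proteins carry names in Rps. The proteins are needed in equal amounts, and their mRNAs share a tract of pyrimidines at the 5′ end (the TOP motif) through which mTORC1 sets how much of each is translated. MYC drives their transcription and that of ribosome assembly factors, and growing, dividing cells make more ribosomes than resting ones. BMAL1, encoded by Arntl, pairs with CLOCK at E-boxes to drive the circadian clock, and rhythms of ribosome production are known in mouse liver.

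To show where such sites lie, promoter windows of 250 bases before to 50 bases after the transcription start were read from RefSeq (build GRCm38.p6, of which mm10 is another name) and found for 60 of the 81 genes. The canonical E-box CACGTG, a palindrome read alike on both strands, lay in the windows of 6 of the 60 genes (10.0%), against 8.09% of all 27025 genes with a window. Over windows rather than genes, 7.15% of all 32851 windows of this length held it. These 6 stretches are printed because the study concerns BMAL1, 5′ to 3′ on the strand of the gene, with the E-box in capitals.
Rpl13a, chr7:45128913-45128972, minus strand: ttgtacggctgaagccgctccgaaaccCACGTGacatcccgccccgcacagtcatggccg
Rpl14, chr9:120571322-120571381, plus strand: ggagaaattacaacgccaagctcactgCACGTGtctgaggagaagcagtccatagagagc
Rpl19, chr11:98026664-98026723, plus strand: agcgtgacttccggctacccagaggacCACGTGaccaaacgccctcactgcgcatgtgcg
Rpl23, chr11:97782410-97782469, minus strand: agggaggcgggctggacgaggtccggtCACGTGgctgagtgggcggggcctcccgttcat
Rpl34, chr3:130730521-130730580, minus strand: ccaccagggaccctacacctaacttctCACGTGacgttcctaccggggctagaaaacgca
Rps19, chr7:24884766-24884825, plus strand: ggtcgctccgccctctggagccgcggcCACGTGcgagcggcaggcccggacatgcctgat

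Positions are counted from the annotated start whose window holds the match, and a gene can have several such starts. The E-box lay at base -3 in Rpl23, -200 in Rpl13a, -168 in Rpl14 and -155 in Rpl34. It lay at base -19 in Rpl19 and -120 in Rps19 from starts that lie downstream of the first base of the gene, so in these genes the E-box is inside the annotated gene. A pyrimidine tract (a C followed by at least 4 bases that are each C or T, on the strand of the gene, between 10 bases before and 14 bases after the start) was found in 38 of the 60 genes (63.3%), against 33.3% of all genes with a window. The ETS motif CCGGAAG, searched on both strands, was in 25 of the 60 (41.7%), against 9.93%. The TATA box TATAAA, also searched on both strands, was in 6 (10.0%), against 15.7%. The starts of 4 genes whose counts are described below follow, from 10 bases before the start on, with the tract in capitals where it was found.
Rps10, chr17:27635225-27635254, minus strand: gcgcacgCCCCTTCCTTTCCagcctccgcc
Rpl15, chr14:18270967-18270996, minus strand: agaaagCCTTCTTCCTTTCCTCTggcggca
Rps15a, chr7:118116128-118116157, minus strand: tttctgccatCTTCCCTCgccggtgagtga
Rps4x, chrX:102189372-102189401, minus strand: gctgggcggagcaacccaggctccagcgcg
Rps10 and Rpl15 show the long uninterrupted tract typical of TOP mRNAs, Rps15a a shorter one, and Rps4x none at the annotated start. A match is a description of letters and not a measured binding site.

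Libraries held 17450270 to 19717848 gene counts. Arntl gave no check of the genotype labels: it stood at 47.97, 49.99 and 57.1 CPM (counts scaled to library size) in BKO-NSP, against 45.02, 57.7 and 53.5 CPM in WT-NSP. In BKO-CC it stood at 26.9 and 33.4 CPM, against 32.2, 29.6 and 26.8 CPM in WT-CC. What stretch of Arntl was deleted is not in the labels, and RNA from the rest can still be counted. Directions given for BKO groups therefore rest on the labels. Markers fit the labelled sources, with summed neural stem and progenitor markers at 297 to 436 CPM in callosum and 3501 to 5394 CPM in neurospheres, and oligodendrocyte markers at 21518 to 33478 CPM in callosum and 1323 to 2243 CPM in neurospheres. The callosum libraries also held neuron markers, at a sum of 6057 to 8070 CPM. BKO-NSP replicate 1 stands apart: 22.6% of its reads were unmapped, against 13.7% to 16.2% in the other neurosphere libraries, and it differed from them by transcript length, as given below. Results on neurospheres are therefore given with and without it. In whole tissue and whole spheres, fewer cells of a type and less RNA per cell cannot be told apart.

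The 81 genes together took a small share of each library, and that share was highest in neurospheres. They held 1.07%, 0.555% and 0.628% of gene counts in BKO-NSP, against 0.498%, 0.560% and 0.559% in WT-NSP. In callosum they held 0.376% and 0.298% in BKO-CC, against 0.276%, 0.327% and 0.295% in WT-CC. BKO-NSP replicate 1 lies alone at the top, and all 5 callosum libraries lie below all 6 neurosphere libraries. The exact 95% binomial interval of the share ran from 1.07% to 1.08% in BKO-NSP replicate 1 and from 0.273% to 0.278% in WT-CC replicate 1. Counting error, the only error such an interval covers, is small beside the span of the libraries. Libraries with close shares had overlapping intervals, such as WT-NSP replicate 2 (0.557% to 0.564%) and BKO-NSP replicate 2 (0.552% to 0.558%). Group means were 0.752% ± 0.281 in BKO-NSP, 0.539% ± 0.0356 in WT-NSP, 0.337% ± 0.0547 in BKO-CC and 0.299% ± 0.0257 in WT-CC (SD, n = 3, 3, 2 and 3).

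**Figure D1:**
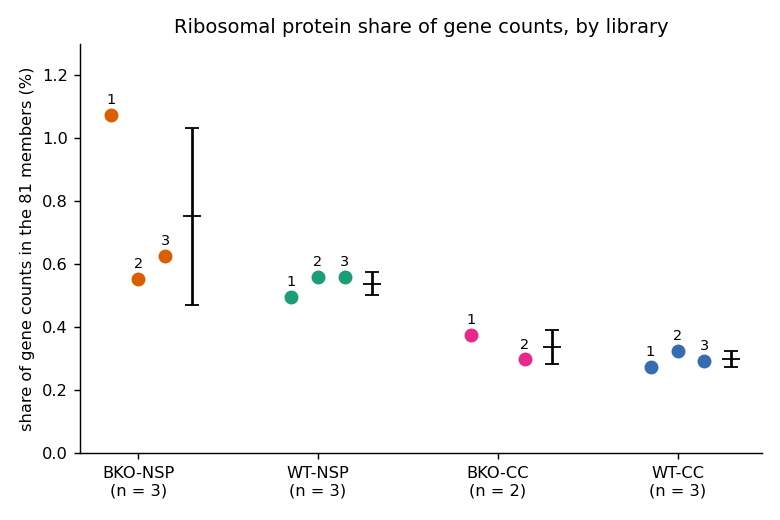
Share of all gene counts held by the 81 ribosomal protein genes (y axis, percent), by group (x axis), with 1 point per library marked by its replicate number, and the group mean with its SD. BKO-NSP replicate 1 at 1.07% lies above the other neurosphere libraries at 0.498% to 0.628%, and callosum libraries lie at 0.276% to 0.376%.

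The row of reads that fit several places was at 0 in every library, and how such reads were treated is not stated. These shares may therefore leave them out, and ribosomal protein genes have many near-identical processed copies. Of the 50-base stretches of a member's transcripts, a median of 56.9% (range 0% to 95.1%) also occur in a transcript of another gene. Genes that share fewer stretches had higher median levels, but over all 81 genes the relation was weak. Spearman's rho of level per kilobase with the shared percentage was -0.30 in BKO-NSP and -0.28 in WT-NSP. In callosum it was -0.22 in BKO-CC and -0.23 in WT-CC. Per kilobase of transcript, the 15 genes with under 30% of their stretches shared had a median of 97.6 CPM per kb in BKO-NSP and 78.2 in WT-NSP, and of 29.3 in BKO-CC and 22.5 in WT-CC. The 26 genes with over 70% shared had medians of 5.06 CPM per kb in BKO-NSP and 4.82 in WT-NSP, and of 5.61 in BKO-CC and 3.17 in WT-CC. Levels of different members therefore cannot be read as relative amounts of mRNA. The shared stretches of a member are the same in every library, but whether equal parts of the reads were lost through them was not measured. Trends on transcript length and GC content, given below, still enter comparisons of the same member between libraries. For 18 members, an antisense gene covers part of an exon, and without strand the reads of the pair cannot be told apart, Rps10, Rpl15, Rpl31 and Rpl5 among them.

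**Figure D2:**
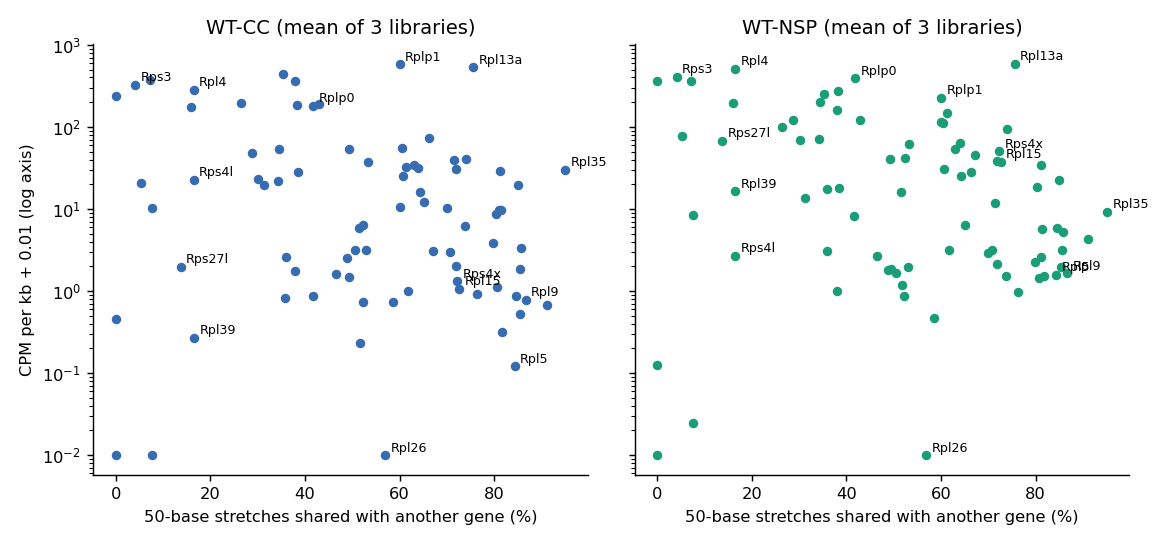
Level of each of the 81 ribosomal protein genes (y axis, CPM per kb + 0.01, log axis, mean of 3 libraries) against the percentage of its 50-base stretches that occur in another gene (x axis), in WT-CC and in WT-NSP. Genes with under 30% shared stretches have medians of 22.5 CPM per kb in WT-CC and 78.2 in WT-NSP, and genes with over 70% have medians of 3.17 in WT-CC and 4.82 in WT-NSP.

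A few members carried much of the counts. The 5 highest held 42.7% to 46.4% of the member counts of each library, and Rpl4, a large-subunit protein that lines the exit tunnel, was first in 10 of 11 libraries with Rps3, at the mRNA entry site of the small subunit, first in BKO-CC replicate 1. Per kilobase, Rpl13a led in neurospheres at 820 ± 288 CPM per kb in BKO-NSP and 591 ± 102 in WT-NSP, followed by Rpl4 at 598 ± 113 in BKO-NSP and 507 ± 43.1 in WT-NSP (SD, n = 3 each). Rpl13a and Rpl4 were read in the same libraries, so these SDs do not measure the spread of the difference between them. The order is one of counts and not of amounts of mRNA. In callosum the order was another, with Rplp1 first at 717 ± 129 CPM per kb in BKO-CC and 582 ± 29.6 in WT-CC, and Rpl13a next at 566 ± 61.4 in BKO-CC and 535 ± 21.7 in WT-CC (SD, n = 2 and 3). The gap between Rplp1 and Rpl13a was larger than 1 SD of either gene in both groups, with the same limits. Rps15 followed, at 503 ± 27.1 in BKO-CC and 440 ± 20.9 in WT-CC.

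At the other end stood members with few or no counts. Rpl26 was listed at 0 in all 11 libraries, and why was not tested: 56.9% of its stretches are shared, the median of the family. Rpl10l and Rpl39l, copies known from the testis, had 1 count and 2 counts over all libraries. Rpl3l, a copy of Rpl3 known from muscle, had 0 to 2 counts per library in BKO-NSP and 1 to 6 in WT-NSP, and 5 to 6 in BKO-CC and 4 to 9 in WT-CC. Rpl3 itself had 1189 to 1767 counts in BKO-NSP and 999 to 1251 in WT-NSP, and 350 to 366 in BKO-CC and 355 to 401 in WT-CC. Rpl10, whose protein joins the large subunit late, averaged 4.72 ± 1.31 CPM per kb in BKO-NSP and 4.36 ± 0.665 in WT-NSP, and 0.971 ± 0.270 in BKO-CC and 0.665 ± 0.106 in WT-CC. Rps13, Rps28 and Rpl30 were low in every group, at 30 counts or fewer per library.

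For the question of what the knockout does in neural stem and progenitor cells, BKO-NSP was compared with WT-NSP. Most ribosomal protein genes had slightly higher counts in BKO-NSP, no gene of the family passed the test, and the excess was smaller without BKO-NSP replicate 1. Of the 81, 76 passed the filter on low counts (Rpl10l, Rpl26, Rpl39l, Rpl3l and Rps28 did not). With edgeR's quasi-likelihood test and Benjamini-Hochberg adjustment over all 13968 genes, 0 of 76 had an adjusted p under 0.05, where 0.00716% of all genes did. At an unadjusted p under 0.05, 5 members were higher (Rpl18, Rpl31, Rpl36, Rpl38 and Rps2) and 0 lower, against 3.02% of all genes in either direction, and DESeq2 called 0 members. With 1 library left out, the number higher at this p ran from 1 (without WT-NSP replicate 2 or 3) to 29 (without BKO-NSP replicate 2, where 6.63% of all genes passed in either direction). The log2 fold change was above 0 for 70 of 76 members, against 49.2% of all genes. Its median over members was 0.46, against -0.01 over all genes, with an interquartile range of 0.30 to 0.56. Large-subunit members (median 0.43, n = 45) and small-subunit members (median 0.48, n = 31) lay close together.

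Rps24, a small-subunit protein mutated in Diamond-Blackfan anaemia, shows the common pattern. It stood at 225, 89.7 and 116 CPM in BKO-NSP, against 85.4, 93.4 and 93.3 CPM in WT-NSP. Replicate 1 alone is far above the wild-type libraries and replicate 2 lies within them, and the log2 fold change was 0.66 ± 0.32 (SE). Rps3 stood at 796, 451 and 522 CPM in BKO-NSP, against 417, 483 and 470 CPM in WT-NSP, with the same library far above the rest. The stalk proteins, which bring elongation factors to the ribosome, did likewise. Rplp0 stood at 584, 408 and 470 CPM in BKO-NSP, against 352, 396 and 437 CPM in WT-NSP. Rplp1 stood at 235, 145 and 162 CPM in BKO-NSP, against 123, 126 and 150 CPM in WT-NSP. Rplp2 stood at 131, 59.6 and 72.5 CPM in BKO-NSP, against 57.7, 60.8 and 57.8 CPM in WT-NSP. For Rplp0, Rplp1 and Rplp2 alike the 2 groups overlap.

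The largest log2 fold change was that of Rpl36, a large-subunit protein, at 1.06 ± 0.32 (SE), with an edgeR adjusted p of 0.798. Rpl36 stood at 2.94, 2.12 and 2.28 CPM in BKO-NSP, against 0.903, 1.44 and 1.15 CPM in WT-NSP. Here all 3 BKO-NSP libraries lie above all 3 WT-NSP libraries, at counts that are low for the family. Rpl31 stood at 5.51, 2.79 and 3.17 CPM in BKO-NSP, against 2.39, 2.25 and 1.94 CPM in WT-NSP, again without overlap, and its log2 fold change was 0.80 ± 0.33 (SE). Rps13 (0.91 ± 0.47) and Rpl34 (0.71 ± 0.42) completed the 5 highest with Rps24. Over the family, 19 of 76 members had every BKO-NSP library above every WT-NSP library, against 6.23% of all genes, and 0 had every BKO-NSP library below, against 5.83%.

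At the low end the values lay near no change. Rpl5, which with Rpl11 and the 5S rRNA binds MDM2 and so restrains it, had a log2 fold change of -0.24 ± 0.29 (SE) and stood at 2.83, 2.12 and 1.82 CPM in BKO-NSP, against 2.87, 2.89 and 2.26 CPM in WT-NSP. Rpl13 had -0.09 ± 0.32 and stood at 24.5, 12.4 and 10.7 CPM in BKO-NSP, against 19.2, 17.2 and 14.3 CPM in WT-NSP. In Rpl13 and Rpl5 the groups overlap. Rpl23a (-0.18 ± 0.28) and Rpl19 (-0.04 ± 0.41) were also among the lowest. Rpsa, whose protein was first described as a laminin receptor, stood at 7.76, 4.65 and 2.85 CPM in BKO-NSP, against 3.93, 4.60 and 2.83 CPM in WT-NSP, without a common direction.

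BKO-NSP replicate 1 was the highest of the 6 neurosphere libraries for 75 of 76 members, against 37.2% of all genes. Its log2 deviation from the mean of the other 5 had a median of 0.86 over members (0.22 to 1.25). The same library was high for short transcripts in general. Over all genes, sorted into 5 bins of about equal size by transcript length, its median deviation was 0.50 in the shortest bin (64 to 1097 nt), then 0.39, 0.080 and -0.18, and -0.69 in the longest. Members have a median length of 711.5 nt, against 2229.5 nt for all genes tested, and 67 of them fall in the shortest bin. Across the 13487 genes with a length, Spearman's rho of this library's deviation with length was -0.54, as a description. Its summed cycling markers (Mki67, Top2a, Cdk1 and Ccnb1) were also the lowest of the neurosphere libraries, at 632 CPM, against 976 to 1285 CPM in the others. The part of cycling in the ribosomal protein values was not tested.

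Without BKO-NSP replicate 1, the median log2 fold change of members was 0.11, and 57 of 76 were above 0, against 48.2% of all genes. By edgeR 0 were called, against 0.0355% of all genes, and DESeq2 was not run on these 5 libraries. At an unadjusted p under 0.05, 2 were higher and 2 lower, against 3.88% of all genes in either direction. BKO-NSP replicates 2 and 3 were both above every WT-NSP library for 19 members, against 9.58% of all genes, and both below for 6, against 8.89%. With offsets that remove each library's trend on transcript length, and all 6 libraries kept, the median was 0.23. With the offsets and without replicate 1 together it was 0.083. With all 6 libraries and no offsets, the median over all genes of the shortest bin (64 to 1097 nt) was 0.21. Other families of short transcripts lay above it, as the members did. The median was 0.43 over 76 mitochondrial ribosomal protein genes (75 above 0) and 0.44 over 63 respiratory chain genes (61 above 0), and without replicate 1 it was 0.10 and 0.11 for these. Translation genes with longer transcripts had lower medians, at 0.21 over 27 initiation factor genes, 0.19 over 19 other TOP mRNAs and 0.17 over 34 ribosome assembly genes. Over 14 rRNA transcription genes the median was 0.07. Of 21 mTORC1 and MYC regulators, with a median length of 2598 nt, the median was -0.16. Why the medians of these lists differ was not tested. No gene of any of these lists was called by edgeR. The highest in each of the mitochondrial lists were Mrps21 (0.71 ± 0.30 SE) and Cox6c (0.70 ± 0.31), and among other TOP mRNAs Eef1d (0.47 ± 0.21).

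**Figure D3:**
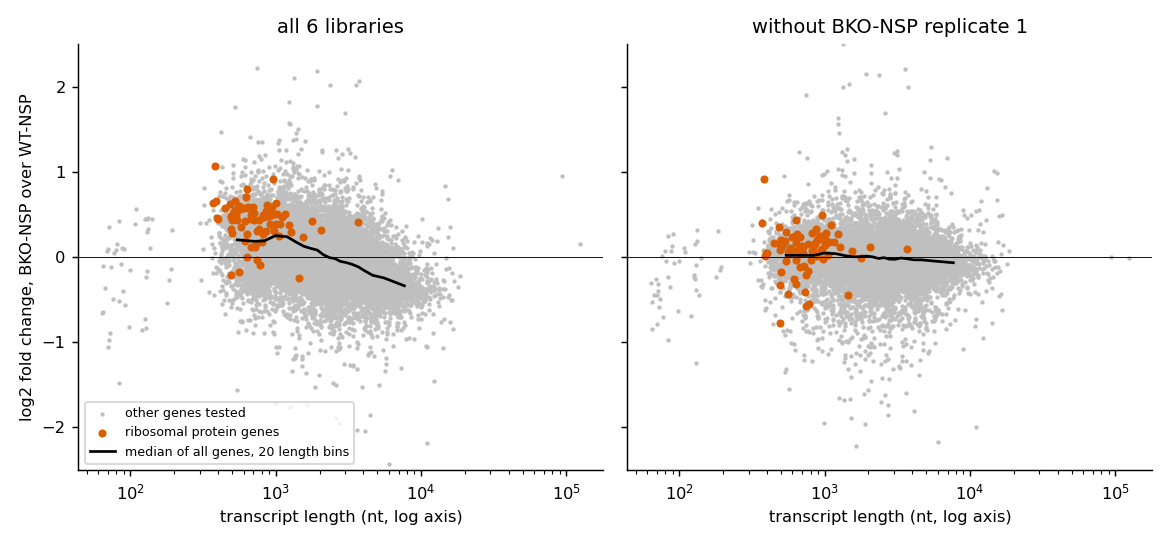
Log2 fold change of BKO-NSP over WT-NSP (y axis) against transcript length (x axis, nt, log axis) with all 6 libraries (left) and without BKO-NSP replicate 1 (right), with ribosomal protein genes in colour, other genes in grey and the median of all genes in 20 length bins as a line. Members have a median of 0.46 on the left and of 0.11 on the right.

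The same question in callosum was put by comparing BKO-CC with WT-CC. No ribosomal protein gene passed the test, the highest positive values followed BKO-CC replicate 1, and Rps15a was the member closest to a call, on the low side. Of the 81 genes, 68 passed the filter (Rpl10, Rpl10l, Rpl24, Rpl26, Rpl30, Rpl36a, Rpl39, Rpl39l, Rpl3l, Rpl5, Rps23, Rps28 and Rps29 did not). By edgeR's test over all 14198 genes, 0 of 68 were called, where 0.909% of all genes were (0.521% higher and 0.387% lower). At an unadjusted p under 0.05, 6 members were higher (Rpl14, Rpl41, Rpl8, Rplp1, Rps26 and Rps4l) and 4 lower (Rps15a, Rps4x and Rpl7 among them), against 13.9% of all genes in either direction, and DESeq2 called 1 member lower (Rps15a). With 1 library left out, the number higher at this p ran from 3 (without WT-CC replicate 3) to 20 (without BKO-CC replicate 2, where 14.3% of all genes passed in either direction), and the number lower from 1 (without BKO-CC replicate 1) to 4. The log2 fold change was above 0 for 52 of 68 members, against 49.1% of all genes, and its median was 0.23, against -0.01 over all genes. The range was wide, from -1.97 to 1.38.

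Rps15a, a small-subunit protein, stood at 6.40 and 3.55 CPM in BKO-CC, against 12.6, 11.8 and 11.4 CPM in WT-CC. Both BKO-CC libraries lie well below the 3 wild-type libraries, which are close together. The log2 fold change was -1.26 ± 0.24 (SE), with an edgeR adjusted p of 0.0509, just above the threshold of 0.05, and a DESeq2 adjusted p of 0.000449. By edgeR it was also called with RLE scaling, no filter, length offsets or a replicate block, at adjusted p from 0.0116 to 0.0477. It was not called in the other fits that keep both BKO-CC libraries. Its sign was the same in all 16 other fits. In neurospheres the same gene had a log2 fold change of -0.0016 ± 0.24. Rps15a lies on chromosome 7 (118104374 to 118116147), 4.79 Mb from Arntl (113178471 to 113314126), and 14 of the 81 members lie on that chromosome. The members nearest to Arntl, Rps13 at 3.02 Mb and Rpl27a at 3.66 Mb, had log2 fold changes of 0.24 and 0.41 in callosum and of 0.91 and 0.51 in neurospheres.

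The other low values had more scatter. Rps4x, the X-linked copy of the S4 protein, stood at 0.291 and 0.229 CPM in BKO-CC, against 0.846, 1.76 and 0.507 CPM in WT-CC (log2 fold change -1.97 ± 0.66 SE). Rpl7 stood at 4.60 and 5.38 CPM in BKO-CC, against 6.94, 11.04 and 8.00 CPM in WT-CC (-0.79 ± 0.23). In both Rps4x and Rpl7 the groups do not overlap, and WT-CC replicate 2 is the highest. Their edgeR adjusted p were 0.25 and 0.191. Rps25 (-0.64 ± 0.55) was also among the lowest. Over the family, 7 of 68 members had both BKO-CC libraries below all WT-CC libraries, against 17.4% of all genes, and 14 had both above, against 15.1%.

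The high values followed BKO-CC replicate 1. Rps10, a protein of the small-subunit head, stood at 83.6 and 11.1 CPM in BKO-CC, against 12.5, 39.7 and 13.0 CPM in WT-CC. Rpl11, the partner of Rpl5, stood at 8.68 and 0.630 CPM in BKO-CC, against 0.903, 3.51 and 0.901 CPM in WT-CC. Rpsa stood at 15.3 and 2.12 CPM in BKO-CC, against 1.97, 6.59 and 2.31 CPM in WT-CC. In all of these, BKO-CC replicate 1 is highest, WT-CC replicate 2 second, and BKO-CC replicate 2 lies within or below the other wild-type libraries. Rpl13 stood at 15.7 and 0.802 CPM in BKO-CC, against 1.02, 13.3 and 2.08 CPM in WT-CC, a wide span within each group. The log2 fold changes of Rpl11 (1.38 ± 1.17 SE), Rpsa (1.26 ± 0.96), Rps10 (1.12 ± 1.07) and Rpl19 (0.94 ± 0.74) were among the highest, and each SE is large beside its value. Rps3, an abundant member, stood at 469 and 198 CPM in BKO-CC, against 201, 320 and 240 CPM in WT-CC.

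This order of libraries was frequent in the family. BKO-CC replicate 1 and WT-CC replicate 2 were the 2 highest of the 5 callosum libraries for 26 of 68 members, against 8.56% of all genes. Members with it include Rps9, Rps18, Rps19, Rps24, Rpl18, Rpl19 and Rplp2. The 2 libraries carry different genotype labels, and no label or header marks them as a batch. WT-CC replicate 2 had summed striatal neuron markers of 1953 CPM, against 611 and 1136 CPM in the other WT-CC libraries and 654 and 792 CPM in BKO-CC. That of BKO-CC replicate 1 was 654 CPM, so these markers did not rank both libraries high. Summed choroid plexus markers were 14.1 and 9.73 CPM in BKO-CC, against 22.1, 44.4 and 180 CPM in WT-CC. All 4 haemoglobin genes of the blood list were at 0 in every library. Reads that fit several places may have been left out, so these counts of 0 do not show that blood was absent. The part of striatal, choroid plexus or blood cells in the ribosomal protein values was not tested. Without BKO-CC replicate 1 the median log2 fold change of members was 0.02, and Rpl11, Rpsa, Rps10 and Rpl19 turned negative.

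**Figure D4:**
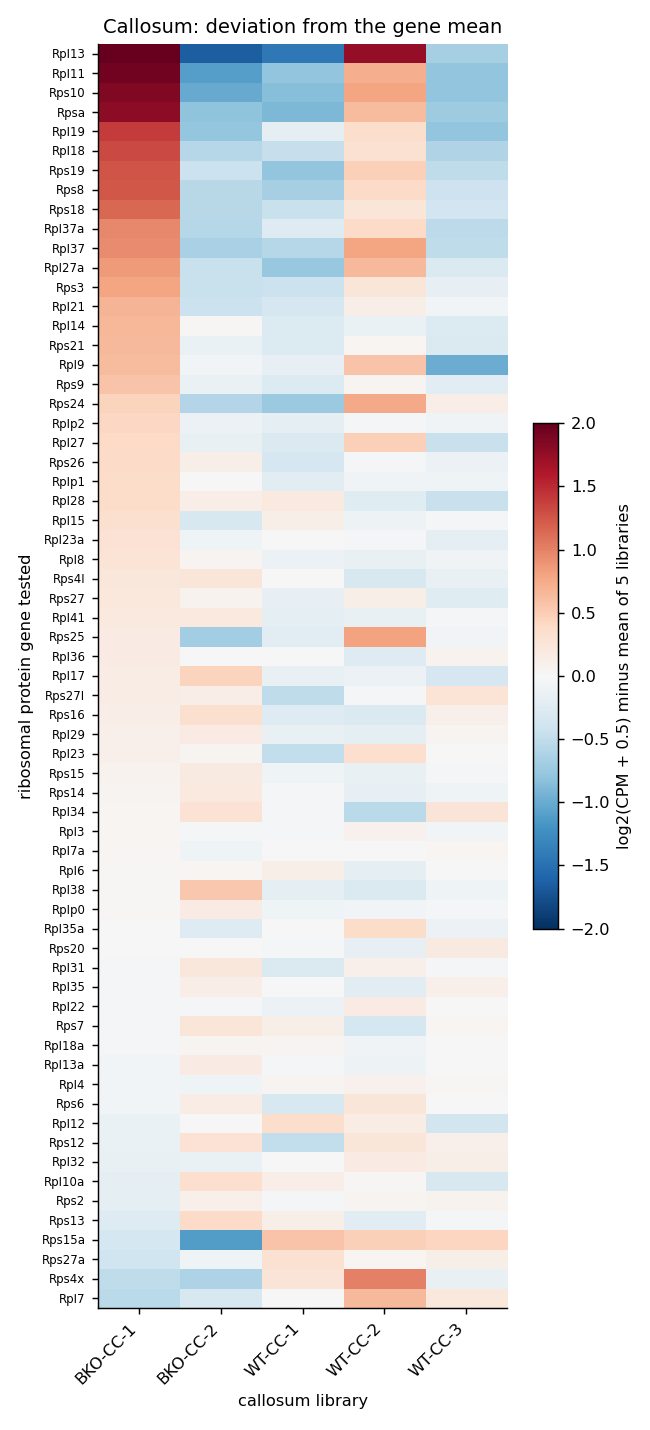
Deviation of log2(CPM + 0.5) from the gene's mean over the 5 callosum libraries (colour, red above and blue below) for 65 of the 68 ribosomal protein genes tested (rows, sorted by BKO-CC replicate 1) in each library (columns). For 26 of the 68 genes the highest values are those of BKO-CC replicate 1 and WT-CC replicate 2, and Rps15a is low in both BKO-CC libraries.

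The stalk proteins were steadier. Rplp0 stood at 133 and 147 CPM in BKO-CC, against 123, 127 and 127 CPM in WT-CC, and Rplp1 at 333 and 255 CPM in BKO-CC, against 222, 246 and 241 CPM in WT-CC. Both had all BKO-CC libraries above all WT-CC libraries, by log2 fold changes of 0.16 ± 0.10 and 0.32 ± 0.13 (SE). Rplp2 stood at 28.9 and 19.9 CPM in BKO-CC, against 18.7, 21.1 and 20.5 CPM in WT-CC, where the groups overlap. None of the lists of other translation and mitochondrial genes held a call by edgeR in this comparison, and their medians ran from -0.07 (rRNA transcription, 13 genes) to 0.19 (respiratory chain, 62 genes). Mrpl47, of the mitochondrial ribosome, had the largest difference of these lists, at -1.02 ± 0.47 (SE).

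Whether the genotype difference differed between callosum and neurospheres was tested by the interaction in a model of all 11 libraries. For 77 members tested, edgeR called 0, where 0.0131% of all 15322 genes were called. At an unadjusted p under 0.05, 0 members were higher and 6 lower (Rps4x, Rps15a, Rpl7, Rpl36 and Rps2 among them), against 4.28% of all genes in either direction, and DESeq2 called 0. With 1 library left out of a group of 3, the number lower at this p ran from 4 to 12, the highest without BKO-NSP replicate 2. There 6.09% of all genes passed in either direction. The number higher was 3 without BKO-NSP replicate 1, where 6.30% of all genes passed in either direction. The smallest p belonged to Rpl7, with a log2 difference of -1.20 ± 0.34 (SE) and an edgeR adjusted p of 0.788. Rps15a had -1.27 ± 0.37, with an adjusted p of 0.808 by edgeR. The difference of Rps15a in callosum is therefore not shown to be particular to callosum. Rps4x (-2.30 ± 0.72) and Rpl5 (-1.76 ± 1.02) were lowest, and Rpl39 (1.49 ± 1.00), Rpl11 (1.21 ± 1.11), Rpl19 (0.96 ± 0.85) and Rps23 (0.83 ± 0.82) among the highest. Rpl5, Rpl39 and Rps23 failed the filter in callosum and entered through their neurosphere counts. They had 0 to 13 counts per callosum library, so their values here say little about callosum. The median over members was -0.23, against -0.04 over all genes, and 23 of 77 members were above 0, against 45.7% of all genes. The median was 0.10 without BKO-NSP replicate 1, and -0.067 with length offsets and all libraries kept.

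Wild-type callosum was set against wild-type neurospheres to ask how the source changes the family. Members moved in both directions and by large factors, more of them down than up. Of the 81 genes, 75 were tested (Rpl10l, Rpl26, Rpl30, Rpl39l, Rpl3l and Rps28 were not). By edgeR's test over 14733 genes, 18 members were higher in WT-CC, against 42% of all genes, and 36 lower, against 43.8%, so the share called in either direction was below that of all genes (85.8%). The median log2 fold change was -0.59, against -0.06 over all genes, and the interquartile range ran from -1.76 to 0.65. Large-subunit members had a median of -0.64 (n = 44) and small-subunit members of -0.37 (n = 31). Rpl10, Rpl24, Rpl36a, Rpl39, Rpl5, Rps23 and Rps29 failed the filter in callosum and entered this test through their neurosphere counts. All of these were called lower, so the filter favoured falls in the count of 36 and in the medians. Whether a library was made by oligo-dT selection or by rRNA depletion is not stated, so a difference in preparation and the difference in source cannot be told apart.

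The largest falls took members nearly out of the callosum libraries. Levels in this comparison are CPM per kb scaled over all 11 libraries. Rpl39, which lines the peptide exit tunnel, fell to 0.114, 0.549 and 0.113 in WT-CC, against 16.5, 18.6 and 14.3 in WT-NSP (log2 fold change -5.91 ± 0.39 SE, edgeR adjusted p 4.67e-07). Rps4x fell to 1.07, 2.21 and 0.639 in WT-CC, against 47.3, 58.5 and 45.6 in WT-NSP (-5.25 ± 0.31). Rpl15, a large-subunit core protein, fell to 1.21, 0.922 and 1.04 in WT-CC, against 38.3, 36.7 and 37.2 in WT-NSP (-5.12 ± 0.17). For Rpl39, Rps4x and Rpl15 the groups lie far apart, and Rpl39 had 1 to 5 counts per WT-CC library. Rps27l, a copy of Rps27 that p53 is known to induce, fell to 1.11, 2.02 and 2.78 in WT-CC, against 61.6, 78.8 and 63.9 in WT-NSP (-5.09 ± 0.26). Rps25 (-3.88 ± 0.30), Rpl5 (-3.75 ± 0.38), Rpl7 (-3.42 ± 0.18) and Rps16 (-3.21 ± 0.26) followed. Rplp0 fell to 178, 182 and 183 in WT-CC, against 347, 392 and 432 in WT-NSP (-1.10 ± 0.11), and Rplp2 to 51.3, 57.5 and 56.2 in WT-CC, against 108, 115 and 109 in WT-NSP (-0.99 ± 0.10).

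The rises were smaller. Rps4l, which the annotation lists as a pseudogene of the S4 family, rose to 25.2, 19.9 and 22.6 in WT-CC, against 3.98, 2.35 and 1.69 in WT-NSP (3.09 ± 0.28 SE, edgeR adjusted p 4.24e-06). Rps27 rose to 5.76, 7.25 and 5.39 in WT-CC, against 1.57, 0.908 and 2.12 in WT-NSP (2.00 ± 0.34). Within the pairs of copies Rps4x and Rps4l, and Rps27l and Rps27, 1 copy was therefore lower and the other higher in callosum. Rpl36 (1.91 ± 0.28), Rpl31 (1.83 ± 0.22) and Rpl35 (1.70 ± 0.14) also rose. Rplp1 rose to 548, 603 and 595 in WT-CC, against 208, 214 and 255 in WT-NSP (1.38 ± 0.11), so the stalk protein genes Rplp1 and Rplp2 were called in opposite directions. Rps10 rose to 22.7, 71.7 and 23.5 in WT-CC, against 12.2, 12.4 and 11.3 in WT-NSP (1.73 ± 0.41), but lost its call without WT-NSP replicate 1 (adjusted p 0.0595) and had 0.97 without WT-CC replicate 2. Rpsa (0.49 ± 0.44), Rpl7a (-0.24 ± 0.10) and Rps27a (-0.06 ± 0.29), which is made as a fusion with ubiquitin, were not called.

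The fold changes between sources moved with the GC content of the transcript. Across 14210 genes Spearman's rho of the log2 fold change with GC content was 0.58, and across the 75 members it was 0.53, as a description. In 5 bins of equal size of all genes by GC content, the median log2 fold change was -2.36, -0.98, -0.055, 0.80 and 1.65 from the lowest to the highest. For the 20 members in the second bin (45.6% to 49.4% GC) the median was -1.87, and for the 11 in the highest (56.6% GC and above) it was 0.81. Rpl39, Rps4x, Rps25 and Rpl7 have 47.1% to 48.7% GC and Rps27l has 43.1%, whereas Rpl36 has 60.8%, Rps4l 60.2% and Rplp1 57.3%. Rpl15, at 54.0% GC, and Rps27, at 50.6%, do not follow this order. With offsets that remove each library's trend on GC content, a fit added after the trend was seen, the family median was -0.72 and by edgeR 13 members were higher, against 42.1% of all genes, and 39 lower, against 36.8%. Of the 36 called lower, 30 were called lower with the offsets, Rpl39 (-5.16), Rps4x (-4.44), Rpl15 (-5.62), Rps27l (-2.85), Rplp0 (-1.94) and Rplp2 (-1.70) among them, and Rpl4 (-0.82) had 0.079. Of the 18 called higher, 10 were called higher with the offsets, Rps4l (1.41), Rps27 (2.31) and Rpl31 (1.95) among them. The calls of Rpl36 (0.15), Rplp1 (0.20), Rpl29 (0.14) and Rps10 (0.88) were lost, and Rps15, at 0.81 without the offsets, had -0.83 with them. Which part of this trend belongs to the cells and which to the libraries cannot be told apart.

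**Figure D5:**
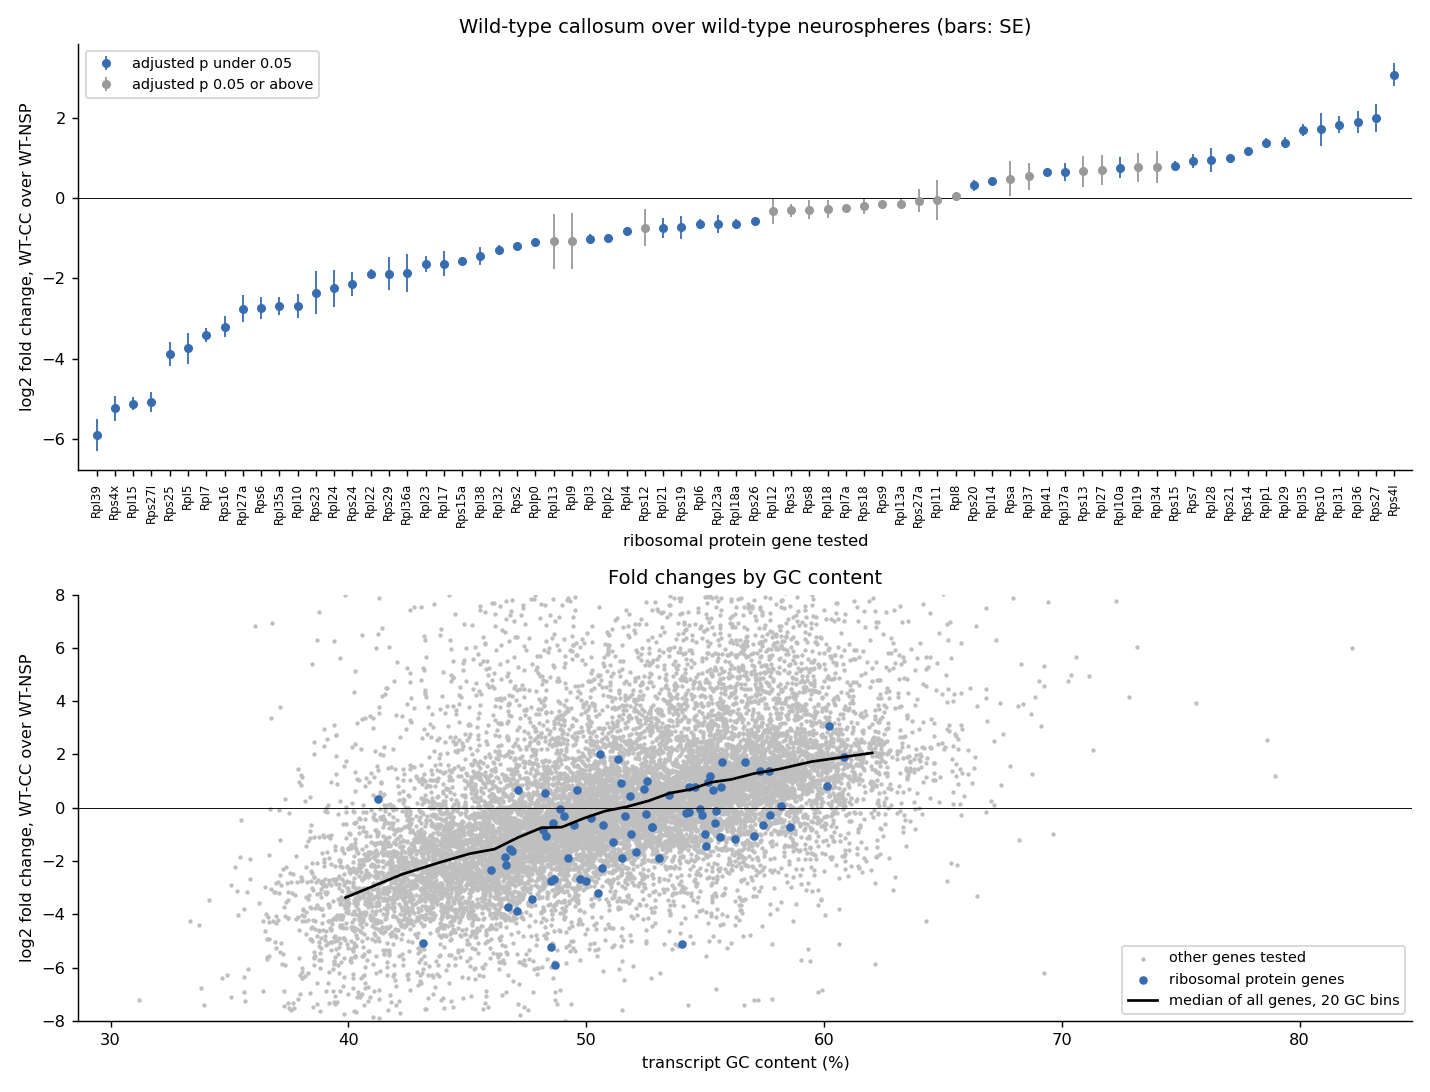
Top, log2 fold change of WT-CC over WT-NSP (y axis, bars SE) of 72 of the 75 ribosomal protein genes tested, sorted, with genes at an edgeR adjusted p under 0.05 in blue. Bottom, the fold changes of all 75 against transcript GC content (x axis, percent), with other genes in grey and the median of all genes in 20 GC bins as a line, within a y range of -8 to 8. Members run from -5.91 (Rpl39) to 3.09 (Rps4l), and their fold changes climb with GC content as those of all genes do.

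Other genes of translation were lower in WT-CC more often than higher, where 42% of all genes were called higher and 43.8% lower. Of 19 other TOP mRNAs, 2 rose and 16 fell (median -1.43), of 27 initiation factor genes 6 rose and 19 fell (-0.99), of 34 ribosome assembly genes 5 rose and 21 fell (-0.69) and of 14 rRNA transcription genes 2 rose and 11 fell (-0.78). Eif3e, a subunit of the initiation factor eIF3, fell most, by a log2 fold change of -7.67 ± 0.18 (SE). Eef1a1, the elongation factor that delivers aminoacyl-tRNA, had -3.02 ± 0.21, and Npm1, a nucleolar chaperone of ribosome assembly, -4.17 ± 0.35. Eif1 went the other way, at 2.36 ± 0.15. Mitochondrial ribosomal protein genes (29 higher, 33 lower, median -0.14), respiratory chain genes (29 higher, 26 lower, -0.04) and mTORC1 and MYC regulators (9 higher, 8 lower, 0.21) had medians nearer to 0, with Myc itself at -2.36 ± 0.37. Of 6 ribosomal protein genes whose symbols the rule leaves out, 4 fell, Rpl22l1 (-6.36 ± 0.54) and Rps3a1 (-2.49 ± 0.19) among them, and 1 rose, Fau (0.82 ± 0.23). These calls all come from edgeR's test with adjustment over all genes and without GC offsets. The part of GC content in them was not tested. Beside them, summed cycling markers were 3.62 to 11.2 CPM in WT-CC, against 976 to 1285 CPM in WT-NSP, and the part of cycling in these differences was not tested.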

How the data were processed

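RNA was extracted with TRIzol, enriched for mRNA or depleted of rRNA, and sequenced on the BGISEQ-500 platform per the labels' protocols. Reads were aligned with STAR 2.7.1a to mm10, per the submitters' processing notes. The sources used here do not give the counting annotation. The deposited files hold raw read counts per gene for 24411 symbols. The counts that ignore strand were used, and 4 rows of unassigned reads were left out. Fits used edgeR 4.0.16 (quasi-likelihood, TMM, filterByExpr, Benjamini-Hochberg over all genes) in R 4.3.3, with DESeq2 1.42.0 and limma 3.58.1 as alternatives. A call is an adjusted p under 0.05. CPM are scaled by TMM within a source. Summed markers and CPM per kb are scaled by TMM over all libraries. Transcript length, GC content and shared stretches are from GENCODE M21, with a length for 95.8% of genes and all 81 members, and positions from RefSeq. The script was tested on simulated counts. Replicates differed by more than sampling noise (chi-square per degree of freedom 6.85 to 132). Whether replicate libraries come from different mice or cultures is not in the labels. The p-values therefore reflect the spread among libraries alone, which may be technical. The members, lists and tests were chosen with earlier results of these data known. Named were Rplp0, Rplp1, Rplp2, Rpsa, copies, the highest and lowest fold changes (up to 5 each) per comparison and the highest and lowest levels. Other members named were chosen after their values were seen. A few members are not reported here by name.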

Additional observations from a re-analysis of the deposited data

How the results depend on the processing

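Of the 23 other fits tried, GC offsets, length offsets without BKO-NSP-1, and the joint omission of WT-CC-2 and BKO-CC-1 were chosen after seeing the data. In neurospheres the median log2 fold change of members (0.46) ran from 0.11 to 0.62 when each library was left out, the lowest without BKO-NSP replicate 1, and was 0.083 with length offsets as well. In callosum, members called lower were 1 in place of 0 with RLE scaling, no filter, DESeq2, length offsets or a replicate block (Rps15a in each). With both WT-CC-2 and BKO-CC-1 left out, the log2 fold change of Rps15a was -1.74. With 1 WT-CC library left out, members called lower ran from 0 to 1, and 0 were called higher. The 1 called lower was not Rps15a and came without WT-CC replicate 1, where 45 of 14098 genes were called lower. Without BKO-CC replicate 1 the log2 fold change of Rps15a was -1.73. Without BKO-CC replicate 2 that of Rpl14 was 0.90 and that of Rps21 0.83. For WT-CC over WT-NSP the median (-0.59) was -1.09 with library size only, -0.35 with DESeq2 and -0.72 with GC offsets. With library size only, 12 of 75 members were higher and 46 lower, against 4979 and 7696 of all 14733 genes. The median of all genes was then -0.57 in place of -0.06. The interaction median (-0.23) ran from -0.45 to 0.10 with each library left out and was -0.067 with length offsets. In a single model of all 11 libraries, 17 members in place of 5 were higher in BKO-NSP and 0 in place of 6 in BKO-CC at an unadjusted p under 0.05, against 6.98% and 6.15% of all genes in either direction. Over all reads in place of gene counts, shares were 0.494% in BKO-NSP, 0.369% in WT-NSP, 0.275% in BKO-CC and 0.243% in WT-CC. The files hold no mitochondrial genome symbols, so leaving these out changed nothing.

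Of 50 named gene results, 34 kept their sign in every setting. With each library left out, those that did not ran, in neurospheres, from -0.55 to 0.14 (Rpl13), -0.57 to 0.18 (Rpl19, 0.038 with library size only) and -0.013 to 0.72 (Rpsa, -0.033 with length offsets and BKO-NSP-1 left out). In callosum they ran from -1.47 to 2.35 (Rpl11), -0.76 to 2.08 (Rpsa), -0.95 to 1.95 (Rps10), -0.81 to 1.72 (Rpl19) and -0.0045 to 0.53 (Rplp2). With WT-CC-2 and BKO-CC-1 both left out, Rpl11 was -0.50, Rpsa -0.0049, Rps10 -0.18 and Rpl19 -0.42. For WT-CC over WT-NSP, Rpsa ran from -0.26 to 0.78 (-0.00223 with library size only). For the interaction they ran from -0.37 to 2.62 (Rpl39), -1.64 to 2.18 (Rpl11), -0.79 to 1.73 (Rpl19), -0.29 to 0.0031 (Rplp0), -0.33 to 0.11 (Rplp1), -0.59 to 0.11 (Rplp2) and -1.20 to 1.63 (Rpsa). The cause was not tested. Same-numbered libraries deviated together with correlations of 0.284, -0.0102 and 0.345 in neurospheres and 0.0634 and 0.03 in callosum, so the numbers were not taken as pairs. With the replicate block the neurosphere median was 0.40. Counts of 28 or fewer per library limit Rps13 and Rps28.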
